A study of Mus musculus with 10 samples.

Results

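High-numbered microRNAs are the late entries of the mouse microRNA catalogue, numbered in the order of their registration. Here they were taken as the rows of the microRNA class whose name is mmu-miR-N with N of 5000 or more and whose counts summed over the 10 libraries reached 50. miR-5121 and miR-7649-3p also met this rule and were left out. That left 120 microRNAs of 1302 mature microRNA rows and of 6968 small RNA features. Of the rows numbered 5000 or more, 472 had at least 1 count. The members were thus chosen by their summed count, so their abundance is given as a description. No statement on genotype below covers either of these rows.

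Small RNA was sequenced from CD43- splenic B-cells of wt mice and of both mutants. 3'RR-deficient mice lack the regulatory region downstream of the immunoglobulin heavy chain genes, and Eµ-deficient mice lack the intronic enhancer of the locus together with its matrix attachment regions. Cells were non-stimulated (NS) or stimulated with LPS (lipopolysaccharide, a bacterial B-cell activator), and the labels give 2 days of culture for both. By the labels each library pooled cells from 2 mice. The study's methods, which do not describe these small RNA libraries, give adult mice of the 129 background and of both sexes. There were 2 libraries per condition for wt and for 3'RR-deficient mice, and 1 per condition for Eµ-deficient mice. Both deletions were carried in the germ line, so other cells of the spleen lacked the same elements. For other sequencing those methods describe cells taken before and after stimulation, and if the NS cells here were not cultured, LPS and culture cannot be told apart. The LPS dose is given with different units in different sources and is not printed.

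MicroRNAs are cut from hairpin transcripts, in most cases by Drosha in the nucleus and then by Dicer in the cytoplasm, and an Argonaute protein keeps one strand. The seed, bases 2 to 8 from the 5′ end, directs the pairing with target mRNAs. In mirtrons a spliced and debranched intron takes the place of the hairpin that Drosha would release, so that one end of the mature microRNA coincides with a splice site. A microRNA row can also hold reads of another RNA that overlaps it, and counts alone do not separate both sources.

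A RefSeq mature sequence (GRCm38.p6) was found by name and position for 104 of the 120 microRNAs. Those shown are the ones the results below turn on, 5′ to 3′, with the seed in capitals. miR-7015-3p is shown only for its position. The first set lies at the 3′ end of an intron of its host gene and shows the last bases that most of them share, and miR-7068-3p and miR-7023-3p of this set also share a seed.
miR-7003-3p: cCCCGGGUuuuccccacag
miR-6988-3p: uGACCUCUguaucuccugccag
miR-7015-3p: uCUCACUGuccucugcacuag
miR-6943-3p: cUGCUUCCauaccccuacccag
miR-7032-3p: aUCCUCUCgguaccgcccugca
miR-7068-3p: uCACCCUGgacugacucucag
miR-7023-3p: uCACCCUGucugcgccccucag

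The second set differed between LPS-stimulated and non-stimulated cells or, for miR-7688-5p, stood highest in 3'RR-deficient cells, and it shares no such ending.
miR-6399: uUGCAAUGaugguauucugagg
miR-6546-5p: aGGCGCCUcugagcuugugcuugu
miR-6537-3p: uUAUCAGGuggaagaacucagcu
miR-6240: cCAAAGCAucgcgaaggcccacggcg
miR-8112: uCUCCGCCaccuccaccgca
miR-8114: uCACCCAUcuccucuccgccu
miR-7688-5p: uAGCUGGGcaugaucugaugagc

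The third set lies inside other small non-coding RNAs, apart from miR-5126, which is shown for its composition (100% G and C).
miR-6516-5p: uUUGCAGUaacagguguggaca
miR-6516-3p: uCAUGUAUgauacugcaaacag
miR-7650-5p: aAUCCUCUugcaacccagaacu
miR-5126: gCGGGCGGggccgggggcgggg

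The mature sequences were 19 to 26 bases long (median 22). Their G and C content had a median of 52.4% and ranged from 33.3% to 100% over the 104 sequences, against a median of 47.6% for lower-numbered microRNAs with 50 or more counts. There were 11 with 70% or more. The 104 sequences carried 103 different seeds. The one seed shared within the list was CACCCUG, in miR-7068-3p and miR-7023-3p, which lie in introns of Cherp (a protein of calcium homeostasis in the endoplasmic reticulum) and of Pik3cd (the lymphocyte catalytic subunit of phosphoinositide 3-kinase). Of the 104, 8 carried the seed of a lower-numbered microRNA, among them miR-6240, the most abundant of the 8, with that of miR-330-3p (CAAAGCA).

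The microRNAs lay mostly within genes. By the GENCODE M21 annotation (GRCm38), 77 of 120 (64.2%) lay in an intron on the same strand, 30 (25%) overlapped an exon, 4 were antisense to a gene and 9 lay between genes. Of the 510 lower-numbered microRNAs with 50 or more counts, 48.8% were intronic and 23.5% lay between genes. The clearest difference in position was at splice sites. An end of 38 of the 120 (31.7%) lay within 3 bases of the 3′ end of an annotated intron, against 14 of 510 (2.7%) lower-numbered microRNAs, and none of the 120 lay at the 5′ end of an intron, where 2 of the lower-numbered did.

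All 38 were named as the -3p arm, out of 51 -3p members. Of the 33 with a sequence, 27 ended in AG, the dinucleotide that closes most introns, and 26 of these in CAG or UAG. Only 4 of the other 71 sequences ended in AG. The introns spanned 74 to 36269 bases (median 256): 16 were of 150 bases or less and 22 were longer. Where a gene had several transcripts any of its introns could match, and the numbers describe position alone.

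**Figure D1:**
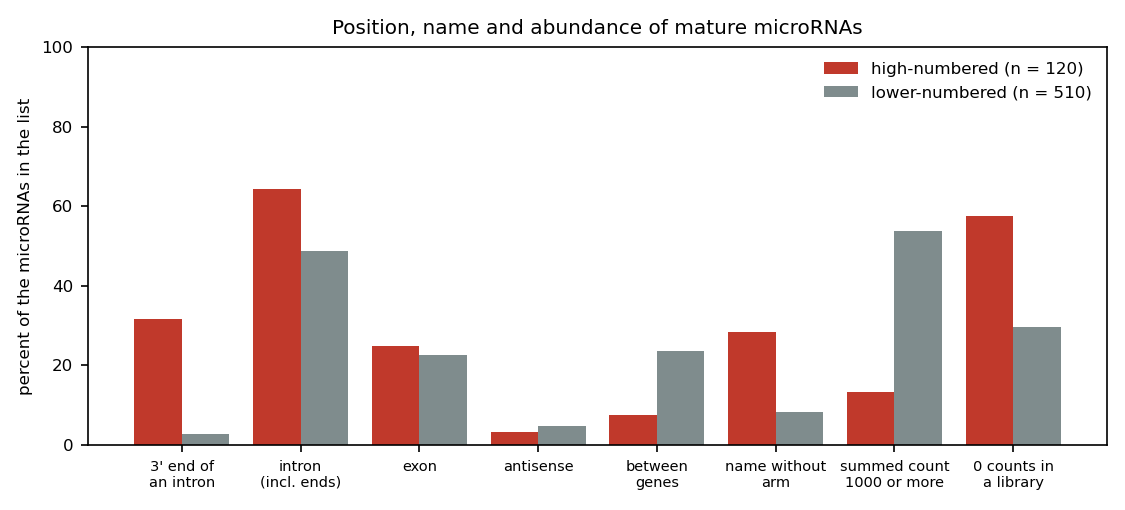
Percent of the microRNAs (y axis) with each property (x axis) among the 120 high-numbered microRNAs and the 510 lower-numbered ones with 50 or more summed counts. The high-numbered bars are taller at the 3′ end of an intron (31.7% against 2.7%) and shorter for a summed count of 1000 or more (13.3% against 53.7%).

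The microRNAs were rare. Their median summed count over 10 libraries was 139.5, against 1310 for the lower-numbered microRNAs with 50 or more counts. There were 16 (13.3%) with 1000 or more counts, and 45 had under 100. In 69 of 120 (57.5%) at least 1 library held no count, against 29.6% of the lower-numbered, and 51 had counts in every library. Of the 120, 34 carry no arm suffix in their name, and 12 hairpins had both arms in the list. At the count limit of 50, miR-6539 (52 counts) and miR-7679-5p (53) stood just inside, and miR-7212-5p (49) and miR-7012-5p (48) just outside. The counts of these 4 were spread thinly, from 0 to 23 per library.

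One sequence dominated the list. miR-5099 (chr12:36816250-36816269, plus strand, between genes) held 78641 of the 122792 counts, or 64.0%. The 38 microRNAs at intron ends held 10.2%, or 28.2% of what remained without miR-5099. The next in summed counts were miR-5107-5p (3206), in an intron of Cd74 (the invariant chain of MHC class II), miR-7003-3p (2576), in Mybl2 (a transcription factor of cycling cells), miR-6240 (2004), between genes, miR-5130 (1720), in an exon of Kctd12, and miR-6988-3p (1701), in Syvn1 (a ubiquitin ligase of the endoplasmic reticulum).

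The libraries held 3482540.0 to 18144016 counts, of which microRNA rows took 51.4% to 82.1%. Levels are in CPM, counts of the microRNA class brought to 1000000 per library with TMM factors. The CPM of 3 counts, the floor used here, ranged from 0.263 to 0.999 over the libraries. Both second NS libraries, of wt and of 3'RR-deficient cells, stood apart from the other 8. They were the shallowest, and rRNA rows took 0.347% and 0.266% of their counts against 0.00743% to 0.0423% elsewhere. Summed lymphoid markers stood at 64200 to 233000 CPM in NS and 81400 to 148000 in LPS libraries. Myeloid markers stood between 479 and 5030 CPM in NS and 82.4 and 512 in LPS libraries (2 of 2 markers detected), and erythroid ones between 2500 and 7920 and between 138 and 3570 (3 of 3). Endothelial markers stood at 25.3 to 141 and 20.8 to 78.6 CPM and stromal ones at 153 to 912 and 15.8 to 827, while the hepatocyte marker and both muscle markers were at 0 in at least 1 library and reached at most 5.62 CPM. In bulk RNA, a change in the share of a cell type and a change in RNA per cell cannot be told apart.

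Together the 120 microRNAs took 0.0742% to 0.294% of microRNA counts in the 5 NS libraries and 0.123% to 0.329% in the 5 LPS libraries. The lowest was wt NS replicate 1 (Wilson 95% interval 0.0727 to 0.0758) and the highest was 3'RR-deficient LPS replicate 1 (0.324 to 0.334). The means were 0.17% ± 0.105 (SD, n = 5) and 0.247% ± 0.0929 (SD, n = 5), a ratio of 1.45, and the ranges overlapped. Without miR-5099 the shares were 0.0911% ± 0.0585 (SD, n = 5) and 0.0619% ± 0.0165 (SD, n = 5), a ratio of 0.68. That direction rested on the second NS libraries of wt and 3'RR-deficient cells, at 0.159% and 0.15% against 0.0413%, 0.0482% and 0.0562% in the other 3, and without both of them the ratio was 1.28. With miR-5099 and without both of these libraries it was 2.63. Within NS, the second wt and 3'RR-deficient libraries gave 0.294% and 0.274%, against 0.0742%, 0.103% and 0.104% in the other 3. The spread between NS libraries was larger than the difference between conditions.

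**Figure D2:**
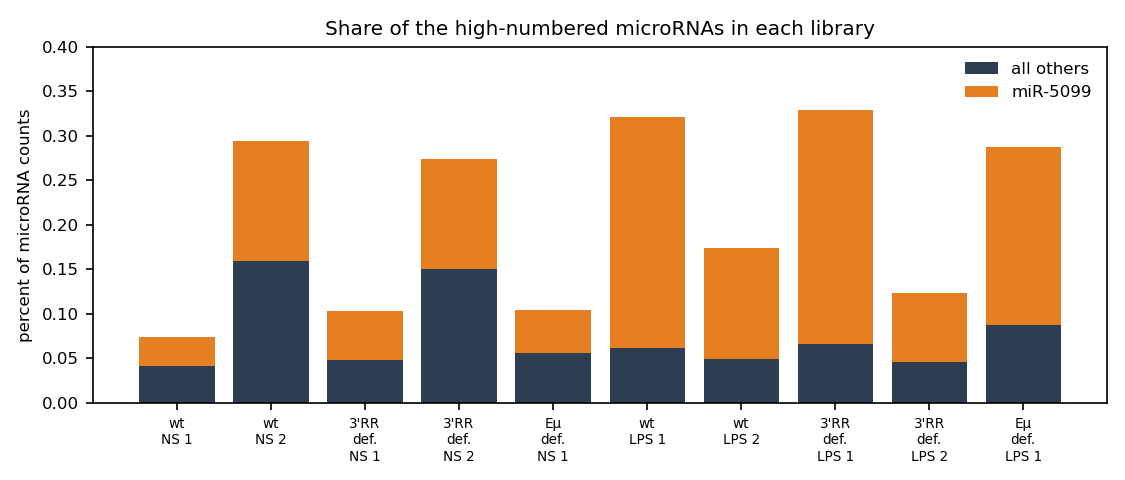
Share of each library's microRNA counts (y axis, percent) taken by miR-5099 and by the other high-numbered microRNAs, stacked, in each of the 10 libraries (x axis). miR-5099 makes up 62.5% to 80.8% of the bar in LPS libraries and 44.3% to 53.2% in NS libraries, and both second NS libraries hold the tallest part without it.

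The first comparison asked what LPS changed. In the fit of the 8 wt and 3'RR-deficient libraries, 104 of the 120 microRNAs passed the filter on low counts, among 720 features. Over both genotypes 11 passed an adjusted p of 0.05 (edgeR's quasi-likelihood test with Benjamini-Hochberg adjustment), which is 10.6% of those tested, against 21.8% of all features. At an unadjusted p under 0.05 there were 29 (27.9%, against 36.7%), and DESeq2 called 23 (22.1%, against 34.3%). Of the 11 called by edgeR, 4 were higher with LPS (3.85%, against 13.2% of all) and 7 lower (6.73%, against 8.61%). The median log2 fold change of the 104 was -0.41, against 0.07 over all features, and 65 had a negative value. After a correction for GC content, in which 90 members and 501 features could be tested, it was -0.23 against -0.17, and with that correction and a block for the replicate number within each condition 0.11 against -0.04, so the lower median of the members depended on the fit. The balance of called directions did so too. With the block alone 11 were higher (10.6%, against 14.6% of all) and 2 lower (1.92%, against 11.0%). With all small RNA rows in the table, which changed the scaling and the 3987 features tested together, 1 of 103 was higher (0.971%, against 2.16%) and 9 were lower (8.74%, against 2.36%). In 25 of the 104 (24.0%, against 31.8% of all) the 4 LPS libraries did not overlap the 4 NS libraries, 12 higher (11.5%, against 18.9%) and 13 lower (12.5%, against 12.9%). The calls were sensitive to single libraries: of the 11, 2 (miR-6399 and miR-6943-3p) kept theirs in all 8 fits that left out 1 library (18.2%, against 35.7% of all 157 features called) and 8 in at most 3 of these fits (72.7%, against 40.1%). Without wt LPS replicate 2 the other 9 were lost (81.8%, against 55.4%).

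Within wt alone 0 of the 104 passed in edgeR, where 0.694% of all features did. There were 9 at an unadjusted p under 0.05 (8.65%, against 21.7% of all), and DESeq2 called 3 of the 95 to which it gave an adjusted p (3.16%, against 14.5% of all). Within 3'RR-deficient cells alone it was again 0, against 0.972% of all, with 9 at an unadjusted p under 0.05 (8.65%, against 19.3%) and 4 calls by DESeq2 (3.85%, against 12.5%). The counts of 0 depended on the block: when it was set on the replicate number within a condition, 5 passed in wt (4.81%, against 13.8% of all) and 8 in 3'RR-deficient cells (7.69%, against 12.5% of all). Same-numbered libraries of both genotypes deviated together in NS (correlation of 0.666 over 720 features), less so with LPS (0.111), and the labels tie the numbers to no shared animal, batch or day. miR-6399 came nearest in both genotypes (edgeR's adjusted p was 0.0583 in wt, and 0.0569 for 3'RR-deficient cells). The difference between both LPS responses was called for 0 of 104 in edgeR (0.0% of all features), with miR-6546-5p alone among the members at an unadjusted p under 0.05 (0.962%, against 0.694% of all; log2 difference -6.53, SE 2.78, adjusted p = 1.0) and miR-7052-3p next to it (4.97, SE 2.40).

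**Figure D3:**
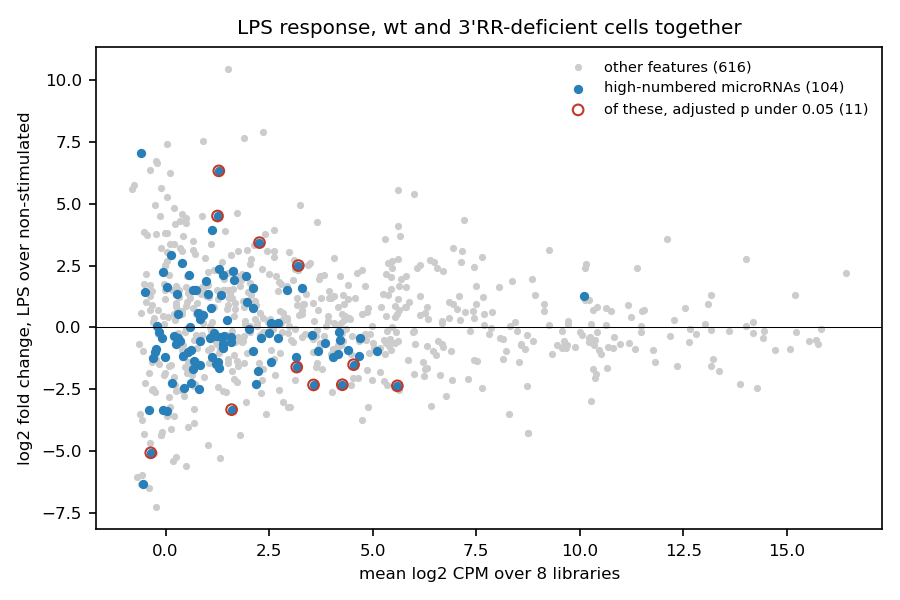
Log2 fold change of LPS over non-stimulated cells (y axis) against mean log2 CPM over 8 libraries (x axis) for the 720 features tested, with the 104 high-numbered microRNAs in blue and the 11 past the threshold circled. Most blue points lie at the low end of the x axis, miR-5099 being the one far to the right, and 65 of 104 lie below 0.

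miR-6399 lies in an intron of Eif4g3 (a scaffold of translation initiation) at chr4:138163263-138163284 and was nearly absent without LPS. The wt libraries had 0.449 and 0 CPM without and 6.46 and 30.6 with LPS. The 3'RR-deficient libraries had 0.132 and 0 CPM without and 15 and 13.6 with LPS. Every LPS library was higher than every NS library, and Eµ-deficient cells went from 0 to 8.75 CPM. LPS over NS gave a log2 ratio of 6.34 (SE 0.89, adjusted p = 0.00175), and over 22 alternatives the adjusted p ranged from 3.91e-09 to 0.0158.

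miR-6537-3p lies in an intron of Pou2f2 (Oct-2, a B-cell transcription factor). It had 3.03, 0, 3.43 and 0.296 CPM in the NS libraries (wt replicates 1 and 2, then 3'RR-deficient 1 and 2) and 16, 20.3, 18.4 and 25.1 CPM in the LPS libraries in the same order. The groups did not overlap, and the Eµ-deficient libraries had 0.518 (NS) and 10.3 (LPS). The fitted log2 ratio was 3.43 (SE 0.85, adjusted p = 0.0174), and it lost its call without either wt LPS library.

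miR-6240 (chr5:114851973-114851998, plus strand, between genes, overlapping a piRNA cluster that has its own row in the table) had 3.48, 9.32, 2.51 and 2.37 CPM without LPS. With LPS it had 20.6, 15.5, 33.6 and 23.5 CPM. The groups did not overlap, and the highest level by far was in Eµ-deficient LPS cells (118 CPM, against 4.35 in their NS library). Over the 8 libraries the fitted log2 ratio was 2.50 (SE 0.64, adjusted p = 0.0205). miR-6240 kept its call in 2 of 8 fits that left out 1 library, and over all alternatives its adjusted p ranged from 0.000285 to 0.0804.

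miR-6546-5p lies in an intron of Fcgr3 (a low-affinity IgG Fc receptor), and its mature sequence is annotated in 3 hairpin genes, so that its reads cannot be assigned to one of them. It had no count in both wt NS libraries and in 3'RR-deficient NS replicate 1, and 2.96 CPM in 3'RR-deficient NS replicate 2. LPS libraries had 15.2, 9.79, 4.87 and 14.1 CPM, without overlap. In wt the summed counts were at least 23.9-fold higher with LPS, taking 3 counts in each library at 0. Over both genotypes the fitted value was 4.51 (SE 1.41, adjusted p = 0.0422), and it ranged from 3.42 to 9.1 when 1 library was left out, with the call lost in 6 of 8 such fits. Over all alternatives the adjusted p ranged from 2.99e-07 to 0.108.

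**Figure D4:**
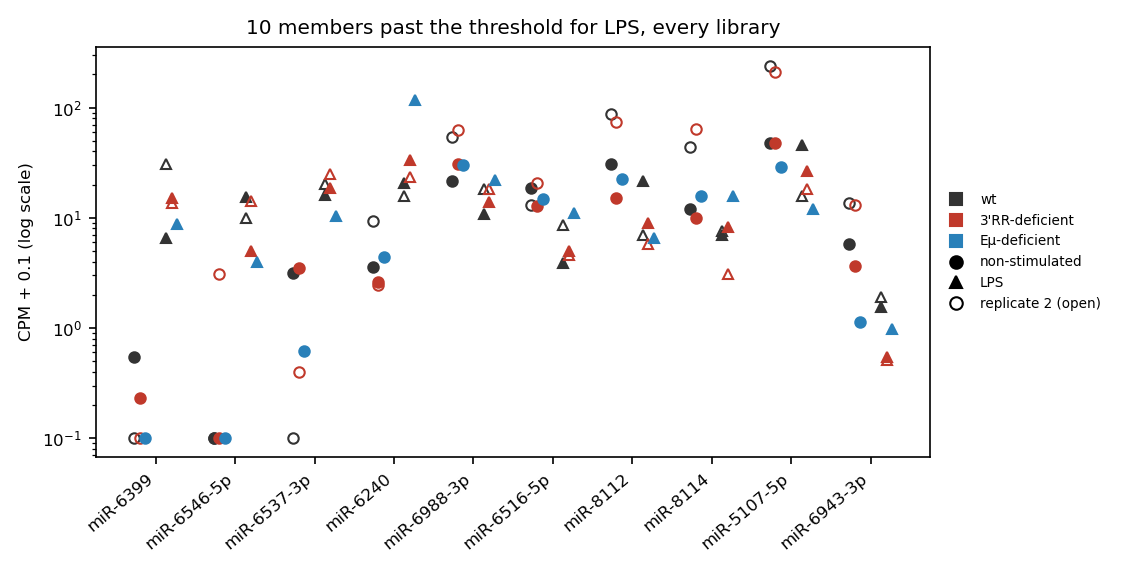
CPM plus 0.1 on a log scale (y axis) in each library for 10 of the 11 high-numbered microRNAs past the threshold for LPS (x axis), circles non-stimulated and triangles LPS, coloured by genotype, open for replicate 2. The 4 at the left lie higher in the LPS libraries, and of the 6 at the right, 5 have their highest values in both second NS libraries.

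The 7 that were lower with LPS comprised 3 at the 3′ end of an intron, 1 inside an intron, 2 in exons and 1 inside a scaRNA gene. In 6 of the 7 both second NS libraries were above each of the other 8 libraries, a pattern seen in 21 of the 120 (17.5%) and in 13.3% of the lower-numbered microRNAs. The 7 were selected for higher NS levels, which favours this pattern. Its share among all features called lower was not computed, so these percentages are no like base. A fit without both second NS libraries, added after the data were seen, also has 2 NS libraries in place of 4. In it 16 of 114 members passed, 11 higher (9.65%, against 14.3% of 824 features) and 5 lower (4.39%, against 12%), and miR-5107-5p, miR-8112, miR-8114 and miR-6988-3p were not among them. The 4 that were higher kept their call in that fit. Summed myeloid markers also stood lower in LPS libraries (82.4 to 512 CPM, against 479 to 5030 in NS), as did the ranges of the erythroid ones (138 to 3570, against 2500 to 7920), the stromal ones (15.8 to 827, against 153 to 912) and the endothelial ones (20.8 to 78.6, against 25.3 to 141), all 4 with overlap between conditions. Their part in these differences was not tested.

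miR-6943-3p sits at the 3′ end of an intron of 87 bases in Grk6 (a kinase of G-protein-coupled receptors). NS libraries had 5.73, 13.7, 3.57 and 13.0 CPM and LPS libraries 1.46, 1.81, 0.442 and 0.407. The groups did not overlap, while the Eµ-deficient libraries had about the same level in both conditions, 1.04 and 0.875. The fitted log2 ratio was -3.32 (SE 0.77, adjusted p = 0.0128), and without both second NS libraries it was -2.48 (adjusted p = 0.0479, with a range of 0.000141 to 0.159 over all alternatives).

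miR-6988-3p, at the 3′ end of an intron of 82 bases in Syvn1, had 21.6, 54.3, 30.6 and 62.2 CPM without and 10.8, 18.2, 13.7 and 18 with LPS. The groups did not overlap, and the fitted log2 ratio came to -1.50 (SE 0.49, adjusted p = 0.0487), or -0.86 (adjusted p = 0.142) without both second NS libraries, and the adjusted p ranged from 0.00964 to 0.31 over all alternatives.

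miR-5107-5p lies inside the same Cd74 intron whose 3′ end carries miR-5107-3p. It had 47.3 and 47.6 CPM in the first NS libraries of wt and 3'RR-deficient cells and 240 and 210 in the second ones. LPS libraries had 45.8 and 15.8 (wt) or 26.8 and 18.2 CPM (3'RR-deficient), each below the 4 NS libraries of these genotypes. The Eµ-deficient libraries had 28.8 CPM without and 11.9 with LPS. The fitted log2 ratio was -2.36 (SE 0.70, adjusted p = 0.0355), but -0.92 (adjusted p = 0.166) without both second NS libraries, and the adjusted p ranged from 0.00177 to 0.682 over all alternatives. The -5p arm held 90.8% of the counts of this hairpin in both of these libraries and 58.8% to 65.6% in the other 3 NS libraries. With LPS it held 83.3% and 75.6% in the first libraries of wt and 3'RR-deficient cells and 52.5% to 56.5% in the other 3, so a high share was not limited to the second NS libraries. miR-5107-3p had a fitted log2 ratio of -1.20 (SE 0.43, adjusted p = 0.0689).

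miR-8112 overlaps an exon of Krcc1, and miR-8114 an exon of Glul (glutamine synthetase). miR-8112 had 30.9, 86.9, 15.1 and 74.3 CPM in NS and 21.3, 6.93, 8.85 and 5.69 in LPS libraries, where the groups overlapped (log2 fold change -2.32, SE 0.68, adjusted p = 0.0339). Without both second NS libraries its log2 fold change was -1.15 (adjusted p = 0.114), over all alternatives it ranged from -2.85 to -0.46 (adjusted p from 0.00288 to 0.517), and the call was kept in 3 of 8 fits that left out 1 library. miR-8114 had 12, 43.6, 9.91 and 63.9 in NS and 6.88, 7.53, 8.18 and 2.98 in LPS libraries, without overlap (-2.32, SE 0.73, adjusted p = 0.0422). Without both second NS libraries it was at -0.84 (adjusted p = 0.282), the range was -2.9 to -0.36 (adjusted p from 0.00543 to 0.665), and the call was kept in 2 of 8 such fits. In Eµ-deficient cells miR-8114 had 15.5 and 15.8 CPM, so that 9 of the 11 called had the same direction there as in the other genotypes, miR-8114 being 1 of the exceptions. With 1 library per condition, that direction has no test, and its share among all features called was not computed.

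miR-5099 was above its NS range in every LPS library but did not pass the test. NS libraries had 457, 999, 698 and 926 CPM and LPS libraries 2240, 1578, 2511 and 1095, while Eµ-deficient cells had 405 and 1627. The groups did not overlap, and the fitted log2 ratio came to 1.29 (SE 0.49, adjusted p = 0.0807). Without both second NS libraries it was 1.65 (adjusted p = 0.0169), and over all alternatives the adjusted p ranged from 0.000142 to 0.341. The other leading members did not pass either: miR-7003-3p had -0.93 (SE 0.56, adjusted p = 0.265) and miR-5130 -1.16 (SE 0.45, adjusted p = 0.0876). miR-7003-5p, named here after its values were seen, had no count in any of the 5 NS libraries and 26, 0, 23, 0 and 33 counts in the LPS libraries (wt 1 and 2, 3'RR-deficient 1 and 2, Eµ-deficient), while the -3p arm of the hairpin had 1274 counts in NS and 1302 in LPS libraries.

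By position, the microRNAs at the 3′ end of an intron had the lowest median among the large classes. Of the 32 tested, 25 had a negative log2 fold change with LPS, the median was -0.92, 3 were called lower and 0 higher in edgeR, where 8.61% of all features were lower and 13.2% higher. Without both second NS libraries 24 of 33 were negative, with a median of -0.65 against 0.15 over all features. Those inside introns had a median of -0.21 over 35 (3 called higher, 1 lower), those in exons -0.42 over 21 (2 lower), and those antisense or between genes -0.17 over 13 (1 higher). Without both second NS libraries, the last class turned to 1.65 and that inside introns to 0.15, the median of all features in that fit. The medians also moved with the GC correction, to 0.37 inside introns, -0.07 in exons and -0.10 antisense or between genes, against -0.68 at the 3′ end of an intron and -0.17 over all features. With the replicate block within condition these medians were 0.73, -0.33 and 0.42, against -0.50 and 0.02.

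Several members share their position with a row of another class in the table. Of the 120, 16 (13.3%) overlapped such a row on either strand, against 22.0% of the lower-numbered. Most of these rows were piRNA cluster regions. By the gene annotation, 3 members lay in a small non-coding RNA gene other than a microRNA. miR-6516-5p and miR-6516-3p match the scaRNA (a small RNA of Cajal bodies, which guides the modification of spliceosomal RNAs) Gm26083 without mismatch, from its bases 128 and 170 of 193, and Gm26083 lies within Snhg20. miR-7650-5p matches the snoRNA Gm25500 within Taf1d. Among 3910 small non-coding transcripts of the GENCODE annotation, no other of the 104 sequences had a match within 2 mismatches. Nuclear tRNAs were not among the classes searched, and rRNA only as far as GENCODE lists it. Members without a sequence, miR-5099 among them, could not be searched. Matches to those RNAs were therefore not tested.

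miR-6516-5p had 18.5, 13.0, 12.8 and 20.4 CPM without and 3.75, 8.43, 4.87 and 4.47 with LPS, without overlap (log2 fold change -1.60, SE 0.50, adjusted p = 0.0412). miR-6516-5p kept its call in 1 of 8 fits that left out 1 library, with an adjusted p of 0.00367 to 0.219 over all alternatives. The row of the scaRNA that contains it did not follow: per 1000000 counts of the whole library it had 2.72, 50.8, 4.36 and 26.6 in NS and 93.2, 24.3, 364 and 21.3 in LPS libraries, and 16.6 and 648 in Eµ-deficient cells. The -3p arm had 3.26, 20.6, 1.85 and 18.7 CPM without and 1.46, 6.17, 3.10 and 2.58 with LPS, high in both second NS libraries. miR-7650-5p had 0.786, 1.67, 0.660 and 1.48 CPM without and 8.54, 7.38, 2.88 and 3.12 with LPS, without overlap (2.13, SE 0.74, adjusted p = 0.0607). Which transcript the reads of these rows came from was not tested.

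Other members in this group overlapped piRNA cluster rows, among them miR-6240, described above, and several that lay in exons. miR-5114, in an exon of Scd2 (a fatty acid desaturase), had 21.5 to 27.0 CPM in the 4 LPS and 23.0 to 37.0 in the 4 NS libraries (log2 fold change -0.42, SE 0.41, adjusted p = 0.482). miR-5113, in an exon of Tnrc6b (a partner of Argonaute), had 9.90 to 13.3 and 16.6 to 19.7 (log2 fold change -0.61, SE 0.43, adjusted p = 0.338). miR-7219-3p (Fam210a) had 1.33 to 12 CPM in NS libraries. miR-5116 (Mmgt1) had 5.15 to 11.3 CPM in the 8 libraries but 0.104 and 5.69 in Eµ-deficient NS and LPS cells.

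The second comparison set 3'RR-deficient against wt cells. In edgeR, 0 of 104 members passed in NS cells (0.0% of all features) and 0 in LPS cells (0.0%), with 2 (1.92%, against 1.25% of all) and 3 (2.88%, against 2.08%) at an unadjusted p under 0.05, and DESeq2 called 0 in both (0.139% and 0.278% of all). Over both conditions 0 passed in edgeR, where 0.139% of all features did, with 4 at an unadjusted p under 0.05 (3.85%, against 2.92%) and 0 called by DESeq2 (0.278% of all). The median log2 fold change of the 104 was 0.14, against 0.00 over all features. Since the rule left out miR-5121 and miR-7649-3p, these counts describe the other high-numbered microRNAs alone.

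miR-7688-5p (chr10:93433107-93433129, plus strand, between genes) had the smallest p over both conditions. It had 0.561 and 0 CPM in wt NS, 2.51 and 4.14 in 3'RR-deficient NS, 3.13 and 0 in wt LPS, and 17.7 and 19.7 in 3'RR-deficient LPS libraries. Within each condition both 3'RR-deficient libraries were above both wt libraries, and both Eµ-deficient libraries had no count. The fitted log2 ratio was 3.43 (SE 1.03, adjusted p = 0.997). A block for the replicate number, set within each condition, gave 3.88 (adjusted p = 0.0315), and over all alternatives the adjusted p ranged from 0.000945 to 1.0.

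miR-7032-3p sits at the 3′ end of an intron of 87 bases in Hip1r (a clathrin and actin binding protein). It had 0.337 and 0 CPM in wt NS, 3.96 and 5.92 in 3'RR-deficient NS, 0.833 and 0 in wt LPS, and 3.10 and 3.93 in 3'RR-deficient LPS libraries, again without overlap in either condition. Over both conditions the fitted log2 ratio came to 3.76 (SE 1.14, adjusted p = 0.997). In NS cells 50 counts in 3'RR-deficient stood against 3 in wt libraries, a ratio of 18.1 with a counting interval of 5.86 to 90.9. Eµ-deficient cells, at 3.73 and 2.63 CPM, stood near the 3'RR-deficient level. The second NS member by p was miR-6546-5p, whose counts came from 3'RR-deficient NS replicate 2 alone.

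In LPS cells the smallest p belonged to miR-7052-3p, at an intron end in Josd2 (a deubiquitinase), and to miR-5103, in an exon of the lincRNA gene Gm37233. miR-7052-3p had no count in wt LPS and 2.21 and 1.22 CPM in 3'RR-deficient LPS libraries, at least 3.04-fold higher (unadjusted p = 0.0133, adjusted p = 1.0 in edgeR). miR-5103 had no count in wt LPS and 1.55 and 4.20 CPM in 3'RR-deficient LPS libraries, at least 6.09-fold higher (unadjusted p = 0.0157, adjusted p = 1.0 in edgeR). At such counts a difference of this size in a single microRNA did not pass the correction over 720 features.

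**Figure D5:**
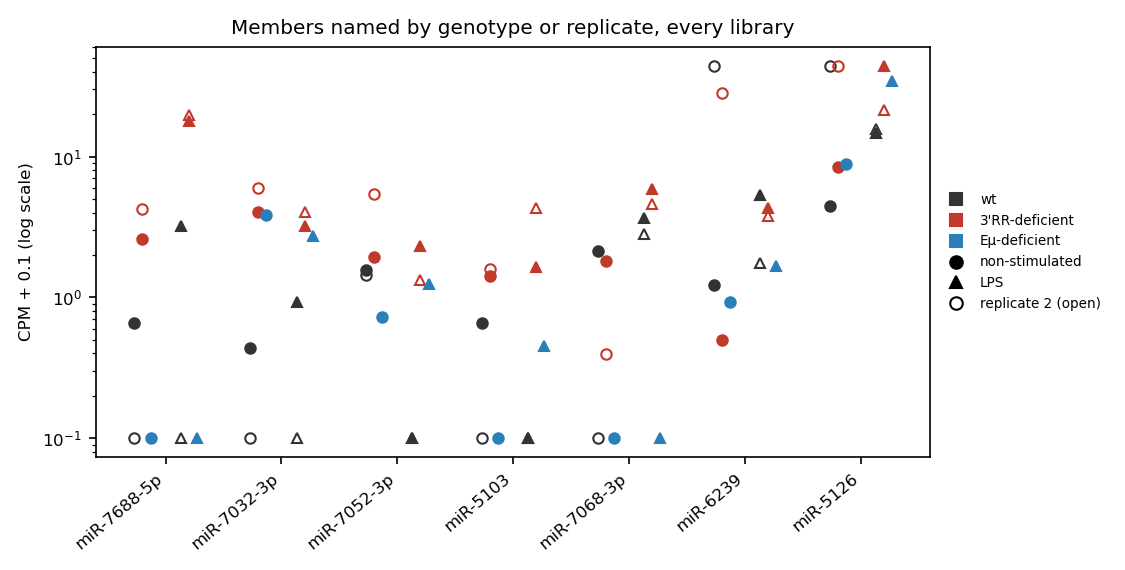
CPM plus 0.1 on a log scale (y axis) in each library for 7 high-numbered microRNAs (x axis) with small p between genotypes or with high values in single libraries, circles non-stimulated and triangles LPS, coloured by genotype, open for replicate 2. For miR-7688-5p and miR-7032-3p the 3'RR-deficient points lie above the wt points of the same condition, and for miR-6239 both second NS libraries (43.6 and 28.4 CPM) lie above all others.

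The third comparison set Eµ-deficient against wt cells over both conditions, in a fit of all 10 libraries in which all 120 members and 988 features were tested. In edgeR 0 of 120 passed, against 1.62% of all features (1.42% higher and 0.202% lower), with 10 at an unadjusted p under 0.05 (8.33%, against 11.4%), and DESeq2 called 3 (2.5%, against 6.91% of the 796 features to which it gave an adjusted p). In edgeR 3 passed with the replicate block within condition (2.5%, against 10.6%) and 3 without both second NS libraries (2.5%, against 7.43%). The median log2 fold change was -0.47, against -0.17 over all features. This comparison uses the wt libraries of the second one, so both share their controls.

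miR-7068-3p, at the 3′ end of the shortest intron of the list (74 bases, in Cherp), had no count in both Eµ-deficient libraries. Wt libraries had 2.02 and 0 CPM in NS and 3.54 and 2.71 in LPS cells, and 3'RR-deficient ones 1.72 and 0.296 in NS and 5.75 and 4.47 in LPS cells. The 53 wt counts made it at least 7.97-fold lower in Eµ-deficient cells (adjusted p = 0.104, ranging from 0.0103 to 0.664 over all alternatives). Its seed partner miR-7023-3p was present there, at 1.97 and 0.350 CPM. miR-7688-5p followed, at least 3.01-fold lower against 20 wt counts (adjusted p = 0.213, with a range of 0.0126 to 0.725).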

How the data were processed

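Small RNA libraries (NextFlex kit, 17 PCR cycles, 75 nt reads) were made by the authors, who deposited one table of raw read counts, in whole numbers, with a row per small RNA feature and a column per library. The submitters' processing notes name cutadapt 1.2.1, Bowtie2 and mm10. The counting program, its use of strand and its treatment of reads matching several places are not given in the sources used here. Depth was 3482540.0 to 18144016 counts per library. Groups were taken from the labels. No source on these small RNA libraries says that the replicate pools were cultured apart, so p-values measure only the spread between these samples. The study gives independent experiments for its other RNA sequencing, and whether that holds here is not stated. Reads were amplified by PCR and no use of molecular identifiers is stated, so the intervals and the limit of 3 counts reflect counting error alone.

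Counts of the microRNA class were tested with edgeR 4.0.16 (R 4.3.3; TMM, filterByExpr, two-sided quasi-likelihood F-test, Benjamini-Hochberg adjustment over all features). The wt and 3'RR-deficient libraries were fitted with a mean per group. Comparisons over both conditions or genotypes, and Eµ-deficient against wt with all 10 libraries, used additive terms. DESeq2 1.42.0 was an alternative, beside other scalings, filters, rows, library sets and member limits, replicate blocks, a GC correction (loess span 0.75) and leaving out each library. The script was tested on simulated data. CPM were scaled over all 10 libraries.

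The members and lists were chosen with earlier results of these data known. Members named were the 6 most abundant, those past the threshold (up to 5 per direction) and the 2 of smallest p where none passed. Also named were those overlapping a row of another class or a non-coding RNA gene (up to 6). Those at intron ends within 3 bases (up to 4), those sharing a seed and those beside the count limit were named too. miR-7003-5p, miR-6516-3p, miR-7650-5p, miR-5126, miR-6239, miR-6538 and miR-7033-5p were named after their values were seen. One read covers a whole mature microRNA, so counts were not divided by length. Adjusted p-values are those of edgeR's quasi-likelihood test unless DESeq2 is named. 1 of the called members is not reported here by itself.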

Additional observations from a re-analysis of the deposited data

How the results depend on the processing

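Of the values that answer a comparison, 178 stayed within 1.5 times the count or 1 SD of the median under the alternatives, and 56 moved. Pairs of percentages give the members called and all features called in the same fit. For LPS over both genotypes, DESeq2 called 23 members, which included all 11 of edgeR, and the GC correction gave 19 (21.1% and 31.1%). The median log2 fold change became -0.89 with a filter of 10 CPM in 2 libraries and -1.02 with all rows of the table. For LPS in wt, the count of 0 became 1 with total count scaling (0.962% and 1.39%), 2 without a filter on low counts (1.67% and 2.78%), 3 with DESeq2 (3.16% and 14.5%), 3 with the GC correction (3.33% and 9.98%), 2 with all 10 libraries in the fit (1.67% and 2.02%), and 3 without both second NS libraries (2.63% and 9.59%). The median became -1.03 with the 10 CPM filter, -1.1 with all rows, -0.27 with the GC correction and 0.03 without both second NS libraries. For LPS in 3'RR-deficient cells the count of 0 became 1 with total count scaling (0.962% and 1.39%), 2 without a filter (1.67% and 1.72%), 1 with the 10 CPM filter (3.33% and 3.73%), 4 with DESeq2 (3.85% and 12.5%), 2 with the GC correction (2.22% and 6.19%), 2 with all 10 libraries (1.67% and 2.02%) and 3 without both second NS libraries (2.63% and 6.07%). The median became -0.69 with total count scaling, -0.95 with all rows, -0.08 after the GC correction and -0.15 without both second NS libraries. For 3'RR-deficient against wt in NS, the median became -0.18 (GC correction) and 0.38 without both second NS libraries. For Eµ-deficient against wt the count became 1 without a filter (0.833% and 2.41%), 3 with DESeq2 (2.5% and 6.91%) and 3 without both second NS libraries (2.5% and 7.43%), and the median -0.15 with total count scaling, -0.14 with the 10 CPM filter, -0.17 with all rows and -0.04 without both second NS libraries. The ratio of shares became 1.98 with miR-5121 and miR-7649-3p, 0.68 without miR-5099, 2.63 without both second NS libraries and 1.28 without both these libraries and miR-5099. Except where the fit has fewer libraries or features, the cause was not tested. The fits without both second NS libraries or miR-5099 and the crossed block were added after the data were seen.

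The labels tie the replicate numbers to no shared animal, batch or day. Deviations of same-numbered libraries correlated at 0.666 across features between wt NS and 3'RR-deficient NS, so these libraries deviated together, but at 0.111 between both LPS groups and at -0.283 to -0.0537 in the other pairs, so the numbers were not taken to pair the samples throughout. With the replicate block the count was 7 for LPS over both genotypes (6.73% and 21.7%), 1 for 3'RR-deficient cells (0.962% and 1.53%) and 2 for wt (1.92% and 3.75%). With the replicate block within condition it was 5 in wt (4.81% and 13.8%), 8 in 3'RR-deficient cells (7.69% and 12.5%), 1 for 3'RR-deficient against wt over both conditions (miR-7688-5p, 0.962% and 0.972%) and 3 for Eµ-deficient against wt (2.5% and 10.6%), with medians of -0.07 for LPS over both genotypes, -0.1 in wt and -0.08 in 3'RR-deficient cells. Under the GC correction together with the replicate block within condition the counts were 1 for LPS in wt (1.11% and 5.79%), 1 for 3'RR-deficient against wt (1.11% and 1.6%) and 2 for Eµ-deficient against wt (1.92% and 9.27%), and the LPS medians 0.11 over both genotypes, 0.01 in wt and -0.05 in 3'RR-deficient cells. The crossed replicate block gave 21 calls for LPS over both genotypes (20.2% and 30.8%), 11 higher and 10 lower. For this block the split by direction over all features was not computed. It gave 7 calls for 3'RR-deficient cells alone (6.73% and 11.5%) and 4 for wt (3.85% and 12.1%).

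Leaving out 1 library gave 2 (without wt LPS replicate 2) to 11 members for LPS over both genotypes, with medians of -0.68 to -0.3, 0 to 3 members in wt (-0.94 to -0.05), 0 to 6 in 3'RR-deficient cells (-0.54 to -0.18) and 0 to 1 for Eµ-deficient against wt (-0.63 to -0.08). In the same order, these were 1.87% to 10.3%, 0.0% to 2.8%, 0.0% to 5.61% and 0.0% to 0.833% of the members tested, against 8.62% to 21.1%, 0.0% to 9.15%, 0.0% to 7.99% and 0.107% to 3.36% of all features. For 3'RR-deficient against wt no fit gave a call by edgeR, with medians of -0.11 to 0.39 in NS, 0.1 to 0.5 in LPS cells and 0.11 to 0.29 over both. The share ratio ranged from 1.27 to 1.78. miR-6546-5p in NS cells, 3'RR-deficient against wt, had a log2 ratio of 0.0 to 7.31 when 1 library was left out, 0.0 being that without 3'RR-deficient NS replicate 2, where no count was left. 3 counts were worth up to 0.999 CPM in the shallowest library, which limits the precision for the rarest members.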

Other observations

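Eµ-deficient LPS cells held the highest CPM of all 10 libraries for 9 of the 120 microRNAs (7.5%, against 12.4% of the 510 lower-numbered ones), and 2 of the 9 are given here as values of a single library. miR-6538, in an intron of Rnf144a and 94.7% G and C, had 50.3 CPM there, against 11.5 to 23.7 in the other 4 LPS libraries and 0.674 to 11.0 in NS libraries. miR-7033-5p, in an intron of Pom121 (a nuclear pore protein), had 49.1 CPM there, against 14.0 to 23.5 in the other LPS and 1.98 to 9.32 in NS libraries.

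2 antisense members stood apart in single libraries. miR-6239 (antisense to Gpc6) had 43.6 and 28.4 CPM in the second NS libraries of wt and 3'RR-deficient cells and at most 5.21 in the other 8. Those second libraries also had 0.347% and 0.266% of their counts in rRNA rows, more than the other 8, and the part of rRNA in these levels was not tested. miR-5126 (antisense to Dner) had 44.0 and 43.8 CPM in the same second libraries and 4.38 to 8.70 in the other 3 NS libraries, but it also reached 44.2 CPM in 3'RR-deficient LPS replicate 1.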
